A study of Mus musculus with 6 samples.

Results

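The fibroblast growth factor (FGF) receptors and the genes that damp their signal were followed by RNA-seq in the growth plate cartilage of mouse embryos at E18.5. The 10 genes were chosen by symbol: the receptors Fgfr1, Fgfr2 and Fgfr3, the kinase-less receptor Fgfrl1, the ligand gene Fgf18 and the feedback genes Spry1, Spry2, Spry4, Spred1 and Dusp6. Each had 1 row in the table, so that 10 of 15803 listed genes are described. Embryos of the genotype Col2a1-Cre;Hnrnpk fl/fl, with Cre driven in chondrocytes by the Col2a1 promoter, gave the 3 libraries labelled CKO, and Hnrnpk fl/fl embryos gave the 3 labelled WT. Both genotypes therefore carried loxP-flanked Hnrnpk alleles, and the WT embryos carried no Cre. Embryos were not separated by sex, and whether each library came from 1 embryo or from several was not given in the sources used here. The study compared littermates, but which libraries shared a litter was not given in the sources used here. The p-values measure the spread between these libraries, part of which may be technical. Whether libraries of a genotype shared an embryo or a pool was not given either, and if so their spread would understate that between embryos.

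FGFs bind receptor tyrosine kinases at the cell surface, and the signal passes through RAS and RAF to the kinase ERK, with side branches through phospholipase C, PI3-kinase and STAT proteins. In the growth plate FGFR3 restrains the proliferation of chondrocytes, and activating mutations of it cause achondroplasia, the most common form of human dwarfism. ERK switches on its own inhibitors, among them the Sprouty and Spred proteins, which act at several points around RAS and RAF. Another is DUSP6, a phosphatase that removes the activating phosphates from ERK. The transcripts of such feedback genes are widely read as a record of ERK activity, although other inputs also reach them.

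Of the 7 genes with enough reads to be tested, 1 was higher in the CKO libraries and 0 lower at an adjusted p under 0.05 from limma, where 3.18% and 2.6% of all tested genes were. By the criterion of the study, which asks for an unadjusted p under 0.05 and a change of more than 1 log2 unit either way, the counts were the same, against 5.3% and 5.1% of all tested genes. Dusp6 rose 4.43-fold in the CKO libraries (ratio of mean CPM), while the interval of each of Fgfr1, Fgfr2, Fgfr3 and Fgfrl1 included 0. The promoters of 3 genes are shown because they stand for this contrast: Dusp6, the feedback gene that rose, Ier3, an early response gene of ERK that also rose, and Fgfr3, the receptor gene with the most reads. The sequences are the 250 bases before the transcription start in RefSeq (GRCm38.p6), read on the strand of the gene, at chr10:99262981-99263230 for Dusp6, chr17:35821463-35821712 for Ier3 and chr5:33721474-33721723 for the first of 2 starts of Fgfr3, all on the plus strand. Capitals mark GGAA and its reverse complement TTCC, the core letters that ETS transcription factors bind at the end of the ERK cascade.
Dusp6: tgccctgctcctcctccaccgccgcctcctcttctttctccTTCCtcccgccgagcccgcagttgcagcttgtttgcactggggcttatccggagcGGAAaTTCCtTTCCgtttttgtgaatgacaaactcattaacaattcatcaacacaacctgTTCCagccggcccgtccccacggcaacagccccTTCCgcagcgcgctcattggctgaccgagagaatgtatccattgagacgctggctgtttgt
Ier3: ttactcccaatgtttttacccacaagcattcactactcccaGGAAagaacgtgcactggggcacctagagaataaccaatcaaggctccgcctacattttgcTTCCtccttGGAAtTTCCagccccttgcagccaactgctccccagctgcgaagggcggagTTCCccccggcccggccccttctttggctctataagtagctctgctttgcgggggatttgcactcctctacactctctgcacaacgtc
Fgfr3: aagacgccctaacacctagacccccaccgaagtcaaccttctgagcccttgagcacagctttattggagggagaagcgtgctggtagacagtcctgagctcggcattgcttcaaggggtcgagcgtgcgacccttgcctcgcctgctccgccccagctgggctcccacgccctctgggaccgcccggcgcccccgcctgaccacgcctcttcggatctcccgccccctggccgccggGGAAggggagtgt
The core occurred 6 times in the Dusp6 sequence, 5 times in that of Ier3 and 1 time in that of Fgfr3, against 5 times before the second start of Fgfr3. Among other genes that passed the threshold it occurred 8 times for Cd44 and 2 times for Nras, which rose, and 4 times for Fgf21, which fell. It occurred 4 times for Spred1, 3 times for Fgfrl1 and 2 times for Fgfr2, which did not pass. For Fgf18, Spry1 and Spry2, which had too few reads to be tested, it occurred 1, 1 and 3 times. The number per window over all promoters was not computed. Because 93.4% of 32851 promoter windows of this length held the core at least once, its presence does not set these genes apart. Searched on both strands, the longer motifs CCGGAA (12.0% of windows), TGACGTCA (1.55%) and TGANTCA (6.75%) were absent from all 3 printed windows, where CCGGAA contains the core and the other two do not overlap it. CCGGAA occurred 1 time in the window of Fgfrl1, which did not pass. The CCAAT box, held by 33.8% of windows, occurred 1 time for Dusp6, 2 times for Ier3 and 1 time for Fgfr3. The table held an entry for 8 of the 10 genes.

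The libraries were shallow and not alike. The deposited CPM, the reads on a gene scaled to a common library total, were whole multiples of 1 read, from which 1153871 to 1454094 reads per library were recovered, so that 1 read was worth 0.688 to 0.867 CPM. Within a genotype, WT 3 stood apart from WT 1 and WT 2, and CKO 2 from CKO 1 and CKO 3: the chi-square of counts per degree of freedom, near 1 for sampling noise alone, was 7.27 and 7.93 for the pairs with WT 3 against 1.89 for WT 1 with WT 2, and 10.9 and 11.8 for the pairs with CKO 2 against 1.27 for CKO 1 with CKO 3. Hnrnpk itself did not separate the genotypes, at 842 to 955 CPM in WT and 759 to 949.9 CPM in CKO (adjusted p from limma = 0.622), a value that covers the whole gene and not the loxP-flanked exons alone. The study reported loss of the Hnrnpk protein in CKO growth plates at an earlier embryonic stage, by western blot and immunostaining. Those are protein measures from other samples, and the libraries here are called by their labels. Of 12155 genes tested with limma on log2(CPM + 1), 387 were higher and 316 were lower in the CKO libraries at an adjusted p under 0.05. Defining genes of cartilage were high in every library, with Col2a1 at 1411 to 3944 CPM, whereas the 7 endothelial marker genes measured summed to 1.38 to 8.66 CPM, and Pecam1 and Cdh5 had at most 1 read in any library. The 10 chondrocyte markers summed to 8804 to 13515 CPM in the WT and 3430 to 5036 CPM in the CKO libraries, and 6 of them were lower past the threshold. In bulk RNA, fewer cells of a type and less RNA per cell cannot be told apart.

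Fgfr3 (ENSMUSG00000054252; GRCm38 chromosome 5, 33721674 to 33737068) was the receptor gene with the most reads. It stood at 131.9, 124.6 and 168.1 CPM over the WT libraries 1 to 3 and at 116.2, 121.3 and 105.7 CPM over the CKO libraries 1 to 3. Every CKO library lay below every WT library, but the gap between the nearest libraries, WT 2 and CKO 2, was small against the spread in WT. The log2 fold change was -0.29 (95% interval -0.68 to 0.095, adjusted p from limma = 0.368) and ran from -0.38 to -0.17 when single libraries were omitted, the latter without WT 3. It rested on 547 reads in WT and 459 in CKO.

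Fgfr2 (ENSMUSG00000030849; chromosome 7, 130162451 to 133123350), known for its role in osteoprogenitors and perichondrium, varied widely among the CKO libraries. The level was 65.2, 66.8 and 73.5 CPM over the WT libraries 1 to 3, and 83.9, 29.6 and 59.8 CPM over the CKO libraries 1 to 3. The WT libraries lay within a narrow band, with CKO 1 above it and CKO 2 and CKO 3 below it. The log2 fold change of -0.36 (95% interval -1.08 to 0.35, adjusted p from limma = 0.570) turned to 0.050 without CKO 2. Exons of Ctbp2 on the same strand overlap those of Fgfr2 in the annotation, and reads could be split between them.

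Fgfr1 (ENSMUSG00000031565; chromosome 8, 25513654 to 25575718), which in the growth plate is best known from hypertrophic chondrocytes, was at 22.5, 42.8 and 28.7 CPM over the WT libraries 1 to 3 and at 42.6, 31.8 and 30.3 CPM over the CKO libraries 1 to 3. The CKO libraries fell inside the WT range, whose lowest and highest values were those of WT 1 and WT 2. The log2 fold change was 0.18 (95% interval -0.43 to 0.80, adjusted p from limma = 0.751) and -0.022 without WT 1. Fgfrl1 (ENSMUSG00000008090; chromosome 5, 108692382 to 108706924), which encodes a receptor that binds FGFs but lacks the kinase domain, was at 33.3, 48.0 and 50.7 CPM over the WT libraries 1 to 3 and at 51.6, 46.9 and 58.9 CPM over the CKO libraries 1 to 3. The groups overlapped, with CKO 2 below WT 2 and WT 3, and the log2 fold change was 0.26 (95% interval -0.23 to 0.76, adjusted p from limma = 0.546) and 0.081 without WT 1. Fgfr4, the fourth signalling receptor and no member of the chosen set, had 27 reads in the WT and 27 in the CKO libraries (log2 fold change 0.074, adjusted p from limma = 0.946).

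**Figure D1:**
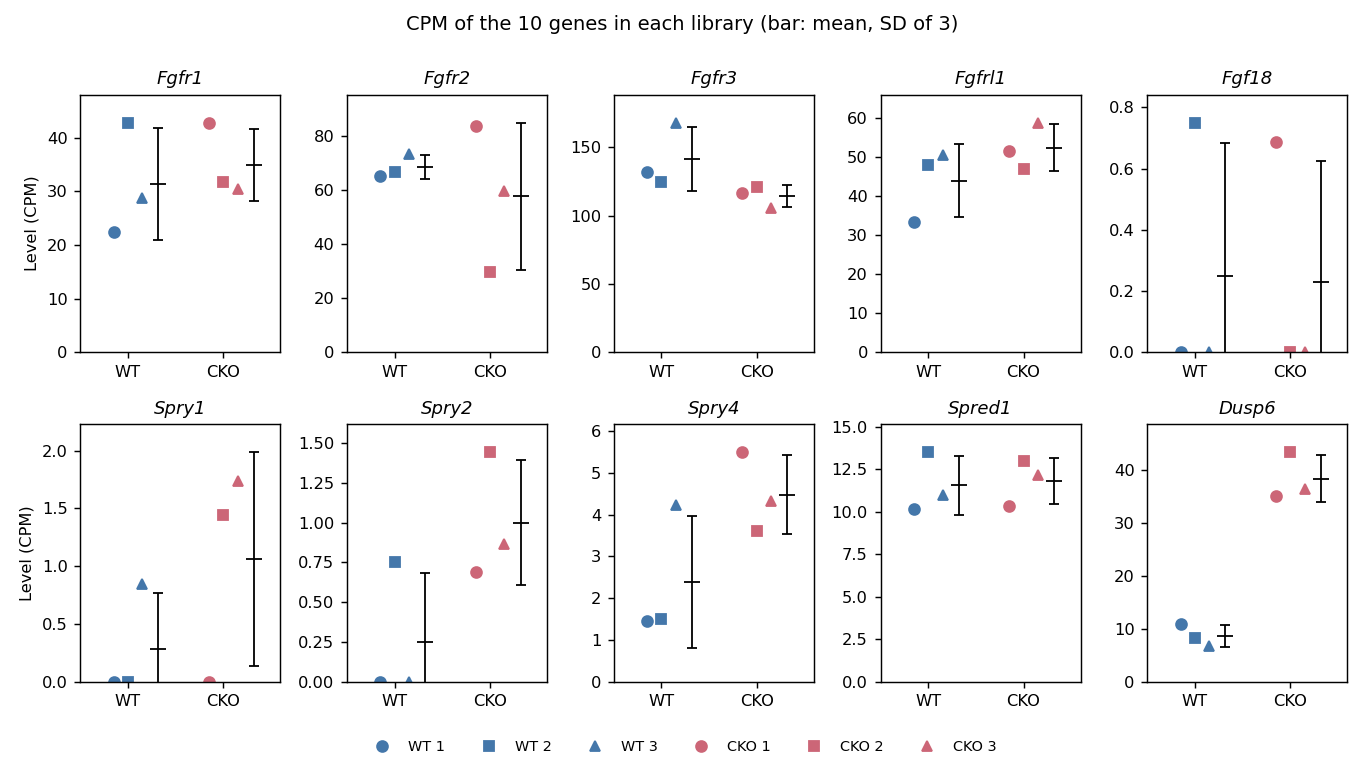
CPM (vertical axis, from 0, with a scale of its own in each panel) of the 10 genes in the 3 WT libraries (blue) and the 3 CKO libraries (red), with the symbol giving the replicate number and the black bar the mean and SD of 3, cut at 0 where it would reach below. Dusp6 is at 6.76 to 10.9 CPM in WT and 35.1 to 43.3 CPM in CKO, whereas Fgf18, Spry1 and Spry2 rest on 0 to 2 reads per library.

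Levels of different genes can be compared only per length, and CPM was divided by the exon length of each gene. On this scale Fgfr3 stood at 19.8 ± 3.26 CPM per kb (SD, n = 3) in WT, Fgfrl1 at 15.8 ± 3.36, Fgfr2 at 6.63 ± 0.425, Fgfr1 at 3.17 ± 1.05 and Fgfr4 at 2.03 ± 1.34. The ranges of Fgfr3 and Fgfrl1 overlapped over the WT libraries, as did those of Fgfr1 and Fgfr4, while Fgfr2 lay apart from its neighbours on either side. With the longest protein-coding transcript as the length, Fgfr2 overlapped Fgfrl1 in WT (15.1 to 17.0 against 14.3 to 21.8 CPM per kb) and lay above it in WT 1. In the CKO libraries the means were 16.0 ± 1.11 for Fgfr3, 18.9 ± 2.18 for Fgfrl1, 5.59 ± 2.63 for Fgfr2, 3.54 ± 0.682 for Fgfr1 and 1.92 ± 0.286 for Fgfr4. Fgfrl1 thus had a higher mean than Fgfr3 there, although CKO 2 showed no such order, and with the transcript length the order was the opposite (27.0 CPM per kb for Fgfr3 and 22.5 for Fgfrl1). Of the summed level per kb of Fgfr1 to Fgfr4, Fgfr3 made up 59.0% to 65.2% in the WT and 53.0% to 68.7% in the CKO libraries. The share of Fgfr2 was 19.2% to 22.4% in WT and 11.6% to 26.5% in CKO, and its low value came from CKO 2.

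**Figure D2:**
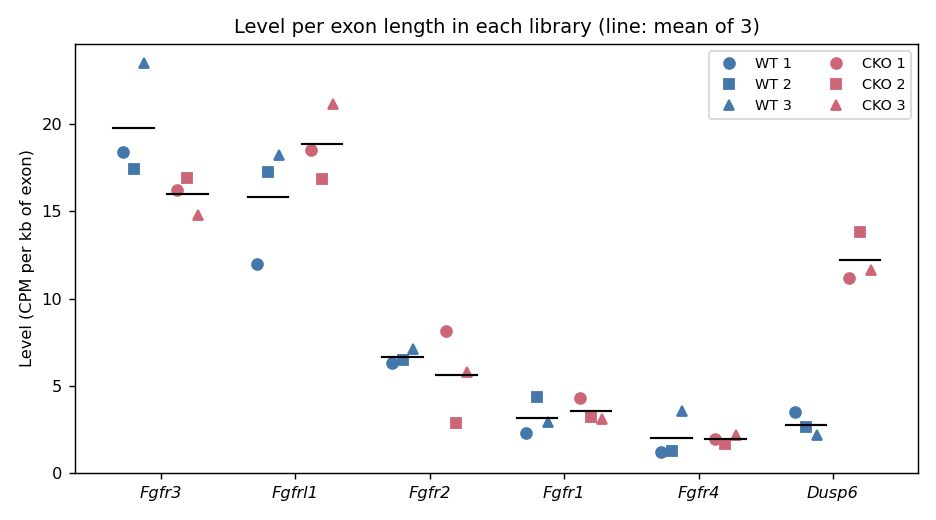
Level per kb of exon (vertical axis, CPM per kb, from 0) of the 5 receptor genes and Dusp6 in each library, with WT in blue, CKO in red, the symbol giving the replicate number and a line at the mean of 3. On this exon length Fgfr3 and Fgfrl1 lie above the other receptors in every library, and Dusp6 goes from 2.75 CPM per kb in WT to 12.2 CPM per kb in CKO.

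Whether a receptor changed by more than another was tested on the difference of their log2(CPM + 1) in each library, with an exact two-sided permutation test whose smallest possible p for 3 libraries against 3 is 0.1. Fgfr1 minus Fgfr3 was -2.18 ± 0.569 in WT and -1.70 ± 0.245 in CKO (SD, n = 3, exact p = 0.3). Fgfr2 minus Fgfr1 was 1.15 ± 0.459 in WT and 0.61 ± 0.610 in CKO (SD, n = 3, exact p = 0.3), and Fgfr2 minus Fgfr3 was -1.03 ± 0.148 and -1.09 ± 0.804 (SD, n = 3, exact p = 1). Adjusted over the 3 differences, the exact p was 0.45, 0.45 and 1. With 3 libraries against 3 no difference could have passed 0.05, and the values are given as a description.

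Fgf18 (ENSMUSG00000057967; chromosome 11, 33117430 to 33147400), the FGF that the perichondrium supplies to the growth plate, was close to undetected. WT 2 and CKO 1 held 1 read each and the other libraries none, where 0 reads allow up to 3 reads, or 2.17 to 2.60 CPM in those libraries. Fgf18 was therefore not tested. Of 18 FGF ligand genes in a list, 10 were measured and 4 reached the mean of 1 CPM needed for the test, Fgf1, Fgf2, Fgf7 and Fgf21. Fgf21, a secreted hormone of metabolic stress that acts mainly through the cofactor beta-klotho, was the exception among them in level and change. It was at 57.3, 66.8 and 30.4 CPM over the WT libraries 1 to 3 and at 11.003, 11.5 and 7.80 CPM over the CKO libraries 1 to 3. All CKO libraries lay below all WT libraries, among which WT 3 was lowest, and Fgf21 fell by 2.18 on the log2 scale (SE 0.33, adjusted p from limma = 0.00505). Klb, which encodes beta-klotho, had too few reads to be tested. Fgf2 had 1 to 3 reads in the WT and 4 to 5 reads in the CKO libraries (log2 fold change 0.78, adjusted p from limma = 0.356).

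Dusp6 (ENSMUSG00000019960; chromosome 10, 99263231 to 99267489) was the member that rose. The level was 10.9, 8.25 and 6.76 CPM over the WT libraries 1 to 3 (15, 11 and 8 reads) and 35.1, 43.3 and 36.4 CPM over the CKO libraries 1 to 3 (51, 60 and 42 reads). The lowest CKO library lay more than 3 times above the highest WT library, with CKO 2 highest and WT 3 lowest, the libraries that stood apart. Without CKO 2 the log2 fold change was 1.95 and without WT 3 it was 1.90. The log2 fold change was 2.04 (SE 0.27, 95% interval 1.44 to 2.65, adjusted p from limma = 0.00314), and Dusp6 held place 41 by p-value among genes that were higher. Omitting any 1 library left it at 1.90 to 2.21, with an adjusted p of 0.00318 to 0.0231. Per kb of exon union, Dusp6 lay below Fgfr2 in every WT library and above it in every CKO library, whereas with the longest protein-coding transcript as the length it stayed below Fgfr2 in CKO 1 and CKO 3. The genes whose profile over the 6 libraries was closest, by root mean square difference of mean-centred log2(CPM + 1) among 6827 genes, were Eda2r (0.14), Cyr61 (0.16) and Gla (0.19). The same measure gave smaller distances for Fgfr3, with Gabpa at 0.057, Dnase1l1 at 0.061 and Gtf2i at 0.066. The nearest genes were Fcgrt, Echdc1 and Mmp23 for Fgfr2, and Bud13, a transcript without a gene name and Dhx8 for Fgfr1.

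The other feedback genes were low or level. Spred1 (ENSMUSG00000027351; chromosome 2, 117121374 to 117182279) had 10.1, 13.5 and 10.98 CPM over the WT libraries 1 to 3 and 10.3, 13.0 and 12.1 CPM over the CKO libraries 1 to 3, which overlap in full. The log2 fold change was 0.034 (95% interval -0.62 to 0.69, adjusted p from limma = 0.964). Spry4 (ENSMUSG00000024427; chromosome 18) had 2, 2 and 5 reads in WT 1, 2 and 3 and 8, 5 and 5 reads in CKO 1, 2 and 3. The groups overlapped through WT 3, and the log2 fold change of 0.77 (95% interval -0.25 to 1.80, adjusted p from limma = 0.367) rested on 9 reads in WT and 18 in CKO. Spry1 (ENSMUSG00000037211; chromosome 3, 37639947 to 37644598) had 1 read in WT 3, 2 in CKO 2 and 2 in CKO 3. Spry2 (ENSMUSG00000022114; chromosome 14, 105891947 to 105896819) had 1 read in WT 2 and 1, 2 and 1 reads in CKO 1, 2 and 3. Both stayed under the mean of 1 CPM needed for the test, and no fold is given. Over the 7 members tested, 5 log2 fold changes were positive and 2 negative, with a median of 0.18 against 0.013 for all genes tested, and the libraries of Fgfr3 and Dusp6 did not overlap between genotypes, where 27.7% of all genes tested did not.

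**Figure D3:**
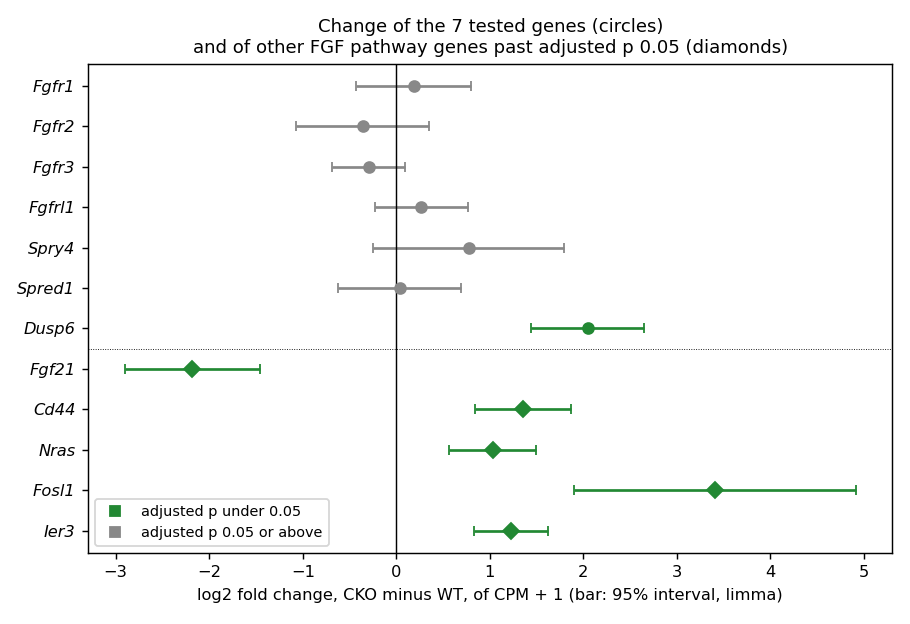
log2 fold change (horizontal axis, CKO minus WT, on the log2(CPM + 1) scale) with its 95% interval from limma, for the 7 members tested (circles) and the 5 other genes of the FGF pathway lists past the adjusted threshold (diamonds), in green where the adjusted p is under 0.05. Among the circles Dusp6 is the green one, at 2.04, and the intervals of the other 6 cross 0.

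A wider set of 87 FGF pathway genes in 8 lists, which includes the members, put these values in context. Of the 76 measured, 58 were tested, of which 5 were higher and 1 was lower past the adjusted threshold, with 39 positive and 19 negative log2 fold changes and a median of 0.16. Across all tested genes 5.78% passed in either direction. The lists were written with earlier results of these data known. Of the 16 feedback inhibitors, 8 could be tested and 1 rose, Dusp6, while the log2 fold changes of Cbl, which encodes a ubiquitin ligase of activated receptors, and Nf1, which encodes a RAS inhibitor, were 0.51 and 0.56 (adjusted p from limma = 0.497 and 0.510).

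Between receptor and ERK, 17 of 18 adaptor and relay genes were tested, and 1 rose. Of all tested genes, 3.18% were higher past the threshold. Nras, 1 of the RAS genes, was at 55.1, 48.0 and 35.5 CPM over the WT libraries 1 to 3 and at 101.8, 94.6 and 85.8 CPM over the CKO libraries 1 to 3, with no overlap. The log2 fold change was 1.03 (SE 0.21, adjusted p from limma = 0.0209). The call was lost without WT 2 (adjusted p = 0.0793), without CKO 1 (0.0921) and without CKO 3 (0.0704), with log2 fold changes of 1.07, 0.97 and 1.09. Mapk3, which encodes an ERK kinase, had a log2 fold change of 0.10 (adjusted p from limma = 0.800). None of the 9 genes of the phospholipase C, PI3-kinase and STAT branch passed the adjusted threshold with limma, and 2 had an unadjusted p under 0.05, Pik3ca at -0.99 and Pik3r1 at -1.30, where 21.3% of all tested genes had one.

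Downstream of ERK, the 8 early response genes all had positive log2 fold changes, with a median of 1.17, and 2 of them rose. Of all 12155 genes tested, 6180 had a positive log2 fold change and 3.18% were higher past the threshold. Ier3, an immediate early gene that also acts on ERK dephosphorylation, had 39.1, 43.5 and 38.0 CPM over the WT libraries 1 to 3 and 98.3, 97.4 and 91.0 CPM over the CKO libraries 1 to 3. The libraries of a genotype lay close together and the groups far apart, with a log2 fold change of 1.23 (SE 0.18, adjusted p from limma = 0.00454) that passed the threshold whichever library was omitted. Fosl1, which encodes the AP-1 subunit Fra-1, had 6, 0 and 3 reads in WT 1, 2 and 3 and 21, 91 and 24 in CKO 1, 2 and 3. All CKO libraries were higher, CKO 2 by far the most, and the log2 fold change was 3.40 (SE 0.68, adjusted p from limma = 0.0190). The call was lost without WT 2 (log2 fold change 2.70, adjusted p = 0.0663) and without CKO 3 (3.59, adjusted p = 0.0602). Egr1, a zinc finger factor induced within minutes of ERK activation, had 13, 7 and 0 reads in WT 1, 2 and 3 and 32, 31 and 18 in CKO 1, 2 and 3, without overlap, but did not pass (log2 fold change 2.37, adjusted p from limma = 0.0857). Without WT 3, the library with 0 reads, it was 1.36. Of all genes tested, 27.7% showed no overlap between genotypes, in either direction. The ETS factor gene Etv5, a standard readout of FGF signalling, was also without overlap, at 4.22 to 15.01 CPM in WT and 17.3 to 28.1 CPM in CKO (log2 fold change 1.18, adjusted p from limma = 0.137), and 0.69 without WT 3. Its relative Etv4 had 19 of its 26 CKO reads in CKO 2, and Etv1, Phlda1 and Myc had log2 fold changes of 0.061, 0.098 and 0.10, with adjusted p above that of Etv5. The list was written with earlier results of these data known, so its count of positive values is a description, and no test of the list as a whole was made.

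**Figure D4:**
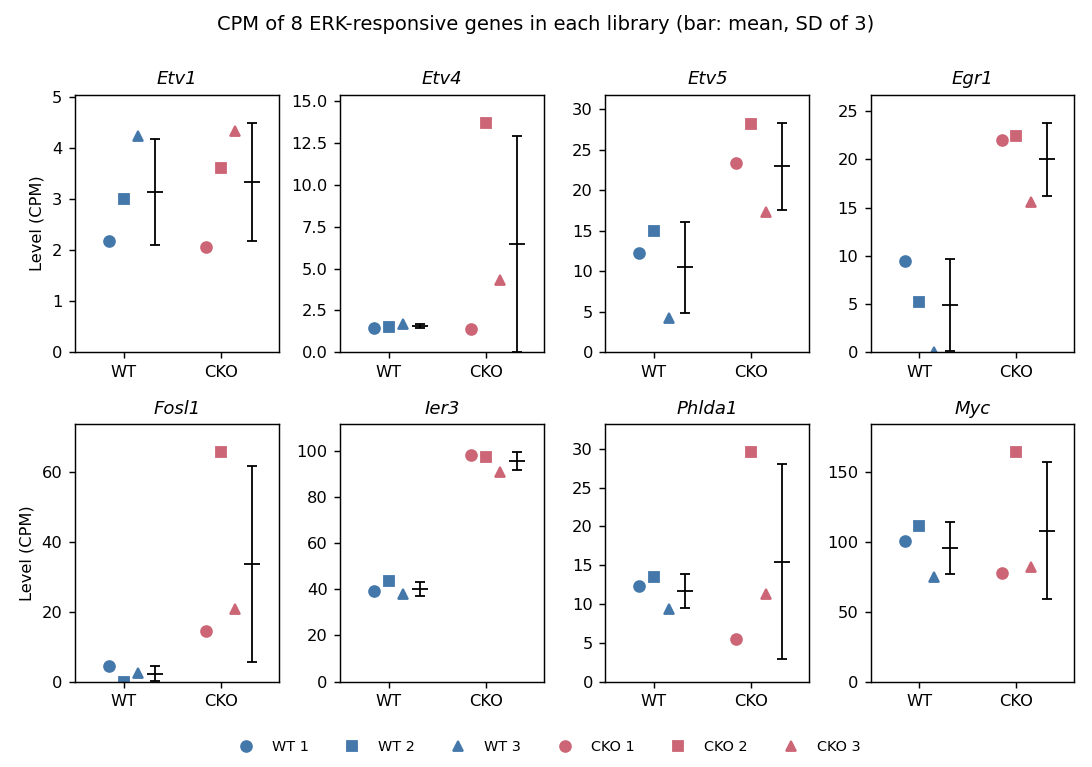
CPM (vertical axis, from 0, with a scale of its own in each panel) of the 8 early response genes in the WT (blue) and CKO (red) libraries, with the symbol giving the replicate number and the black bar the mean and SD of 3. Ier3, Fosl1, Egr1 and Etv5 show no overlap between genotypes, as do 27.7% of all genes tested. CKO 2 is the highest library for Fosl1, Egr1, Etv4, Etv5, Phlda1 and Myc.

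Among the cofactors, 4 of 9 genes were tested and 1 rose, where 3.18% of all tested genes were higher past the threshold. Cd44, a hyaluronan receptor that can present FGFs, was at 15.9, 13.5 and 13.5 CPM over the WT libraries 1 to 3 and at 39.9, 39.0 and 35.5 CPM over the CKO libraries 1 to 3. The groups lay far apart, with a log2 fold change of 1.35 (SE 0.23, adjusted p from limma = 0.00936), and the adjusted p was 0.0501 without WT 2 and 0.0526 without CKO 1. Fgfbp1, a carrier of secreted FGFs, had 16 reads in CKO 2, 1 in WT 3 and none elsewhere. C-type natriuretic peptide opposes FGFR3 in chondrocytes, and of the 4 genes of its pathway 3 were tested and 0 passed the adjusted threshold with limma. Its receptor gene Npr2 had an unadjusted p = 0.0423 (log2 fold change 0.70, adjusted p from limma = 0.214), the 1 gene of the list under 0.05, again beside 21.3% of all tested genes.

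Marker sums of other cells also differed between libraries. The 9 skeletal muscle markers summed to 69.6, 43.5 and 200 CPM over the WT libraries 1 to 3 and to 107, 267 and 107 CPM over the CKO libraries 1 to 3. WT 3 and CKO 2, the libraries that stood apart, were thus the highest of their genotype, and 0 of 7 tested passed the adjusted threshold. Myog had 248 reads in CKO 2 and 41 in WT 3. Of the erythroid genes, Hba-a2 had 39 reads in CKO 2 and at most 3 in any other library. The 7 hypertrophic markers summed to 452 to 858 CPM in WT, to 538 CPM in CKO 2 and to 2986 and 3240 CPM in CKO 1 and CKO 3. Mmp13, at 2155 and 2301 CPM, and Ibsp, at 708 and 808 CPM, held most of the sum in CKO 1 and CKO 3. Their log2 fold changes were 1.81 and 1.78, against 0.33 for Col10a1, 0.056 for Alpl, -0.19 for Panx3 and -0.997 for Runx2. Of the 6 tested, 0 passed the adjusted threshold from limma, and the libraries of each overlapped between genotypes. By the criterion of the study Mmp13 and Ibsp were higher (unadjusted p from limma = 0.0139 and 0.0257), as were 5.3% of all tested genes. The study reported Mmp13 as upregulated in its RNA-seq by that criterion, which is not the adjusted threshold used here. The 6 epithelial and skin markers measured summed to 27.0 to 52.9 CPM in WT and 133 to 206 CPM in CKO. Perp alone held 8.45 to 18.8 CPM in WT and 97.0 to 145 CPM in CKO, and Krt10 16.9 to 39.1 and 31.2 to 44.0 CPM. Sfn had 16 reads in CKO 2, 4 in CKO 3 and at most 1 in any other library (log2 fold change 1.63, adjusted p from limma = 0.211). Epcam had 6 reads in CKO 2, 1 in CKO 3 and none elsewhere, while Krt1 and Krt15 had at most 1 read in any library. The 8 perichondrial and fibroblast markers summed to 3244 to 5080 CPM in WT and 1228 to 2199 CPM in CKO, most of it from Col3a1, Dcn and Col1a2, of which Dcn and Col1a2 were lower past the threshold. Prrx1 and Twist1 were higher in every CKO library than in any WT library but did not pass (log2 fold change 0.98 and 0.44, adjusted p from limma = 0.0674 and 0.510). Libraries without overlap, in either direction, were found for 27.7% of all tested genes. The 8 macrophage markers summed to 67.4, 68.3 and 301 CPM over the WT libraries 1 to 3 and to 187 to 203 CPM in CKO, with Ptprc at 1 read in CKO 2 and 0 in the other libraries. Lyz2 held most of that sum, and Cd68, at 6.75 to 11.8 CPM in WT and 46.9 to 76.3 CPM in CKO, was the 1 macrophage marker past the threshold (log2 fold change 2.74, adjusted p from limma = 0.00114). The 7 osteoblast markers measured summed to 329, 439 and 584 CPM over the WT libraries 1 to 3. In the CKO libraries 1 to 3 they summed to 567, 284 and 562 CPM, lowest in CKO 2, as was Fgfr2. Bglap2 was at 290, 35.4 and 257 CPM there, and 0 of 5 tested passed the adjusted threshold. The part of these shifts in the values of Fgfr2, Dusp6, Ier3 and the other genes named here was not tested.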

How the data were processed

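RNA-seq of growth plate cartilage from 3 WT and 3 CKO libraries was used, grouped by the sample labels. The authors deposited CPM for each gene in each library. The kit keeps strand. The submitters' processing notes name cutadapt 2.5, HISAT2 and featureCounts 1.6.3, without a genome build, annotation or strand setting. Whole reads were recovered for 100% of values, within 0.01 read. Of 15803 identifiers, 15212 were found in GENCODE M21 (GRCm38), which gave coordinates and exon lengths.

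Genotype was the 1 term of a limma fit (version 3.58.1, R 4.3.3) to log2(CPM + 1), run on 12155 genes whose mean reached 1 CPM, with its trend option and p-values adjusted by Benjamini-Hochberg. A fold change on this scale understates that of genes with few reads. A call is an adjusted p under 0.05. Alternatives were a pseudocount of 0.1, no filter, a mean of at least 10 CPM, a replicate block, each library left out, TMM scaling, and edgeR (version 4.0.16) and DESeq2 (version 1.42.0) on the recovered reads. The fits were tested on simulated counts. Floors and intervals of low counts cover counting error only. Transcripts with 90% identity over 300 bp, searched with BLAST (version 2.17.0), were found for Fgfr2, Fgfr3, Spry1 and Fosl1, and each set includes an overlapping gene. Exons of a gene on the other strand overlap those of Fgfr1, Fgfr3, Spry1 and Fosl1. The genes named are the members, the genes of the FGF pathway lists past the adjusted threshold, others needed to state a count of 5 or fewer, and the 3 genes of closest profile for Fgfr3, Fgfr2, Fgfr1 and Dusp6, and other list genes were chosen after their values were seen. Members and lists were chosen with earlier results of these data known. Values of some list genes are not reported here.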

Additional observations from a re-analysis of the deposited data

How the results depend on the processing

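The counts of members, 1 higher and 0 lower, were the same in all 14 alternatives, and Dusp6 kept its call in each of 13 (log2 fold change 1.90 to 2.21, adjusted p 1.26e-04 to 0.0231). Members near 0 changed sign: Fgfr1 was between -0.022 and 0.43, Fgfr2 between -0.69 and 0.050 and Spred1 between -0.047 and 0.14 with each library left out, where Fgfr1 turned without WT 1 (-0.022), Fgfr2 without CKO 2 (0.050) and Spred1 without WT 1 (-0.047) and without CKO 2 (-0.032). Spred1 was also -0.0079 with TMM scaling and -0.011 with edgeR. Fgfr2 minus Fgfr3 lay between -0.38 and 0.39 with each library left out and turned without WT 2 (0.0018) and without CKO 2 (0.39). DESeq2 gave Spry1 1.89 and Spry2 1.83, from 5 reads each and without an adjusted p. With each library left out, 2 to 5 FGF pathway genes were higher and 1 to 2 lower, and over all genes 123 to 692 were higher and 79 to 606 lower, the highest counts without CKO 2. With the replicate block 225 genes were higher and 160 lower, Dusp6 had an adjusted p = 0.0148, and Fosl1 lost its call (0.0544), as it did with the pseudocount of 0.1 (4.69, adjusted p = 0.0667). The labels tie no replicate number to a litter or batch, and the deviations of same-numbered libraries correlated at 0.073, -0.21 and -0.15 over 6827 genes, so the block was not used for the report. The cause of these shifts was not tested. Egr1 passed with DESeq2 (1.97, adjusted p = 0.0488). The depth limits Fgf18, Spry1 and Spry2, which were not tested, and widens the interval of Spry4.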
